A study of Sus scrofa with 48 samples.

Results

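Major histocompatibility complex (MHC) class I antigen presentation was described in the liver of pigs from lines divergently selected for residual feed intake (RFI), the difference between measured feed intake and the intake predicted from growth and fatness. The members were 10 genes of the 10604 named by a tested probe: the class I heavy chains SLA-1, SLA-3 and SLA-5 of the pig, HLA-B (a heavy chain probe named after the human gene), B2M, TAP1, PSMB8, PSMB9, NLRC5 and TRIM26. They were read from every probe that carries one of these gene names or an accession of such a gene, 41 probes of 60305. These genes had been chosen from differences between the lines measured on the same arrays, so that line differences are given below as a description and were not tested. In contrast, the effect of diet had no part in the choice and was tested.

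The liver RNA came from 48 purebred Large White barrows (castrated males) of the same age, killed shortly after a meal. The low RFI line (more feed-efficient) gave 24 of them and the high RFI line the other 24. In either line, 12 animals had free access to a high-fat high-fiber diet (HF) and 12 to a low-fat low-fiber diet (LF), given from the growing period until slaughter. There was 1 selected line of each kind, so that an effect of selection on RFI and any other genetic difference between these populations cannot be told apart. Each RNA was labelled with Cy3 and hybridized alone to 1 array. The 6 slides of 8 arrays held 2 arrays of each group, and each of the 2 scan days held 6 arrays of each group. The share of probes well above background per array was 65.8% to 77.2%, with medians of 71.0 to 72.0% in the 4 groups, and 0 spots were saturated. Values below are log2 intensities from which the median of the array was subtracted, and a negative value is below that median. Their level depends on the probe, so that levels are compared between pigs and never between probes.

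Class I molecules show peptides from inside the cell to cytotoxic T cells. Each consists of a polymorphic heavy chain bound to the invariant light chain beta-2 microglobulin (B2M). The peptides are cut by the proteasome, of which PSMB8 and PSMB9 are subunits that replace constitutive ones after exposure to interferon, and they are carried into the endoplasmic reticulum by a transporter of which TAP1 is a subunit. NLRC5 is the transactivator of class I genes, and TRIM26 is a ubiquitin ligase whose gene lies in the class I region. In the liver, hepatocytes express class I molecules, and Kupffer cells, endothelial cells and lymphocytes do so too.

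In the pig reference assembly Sscrofa11.1, the class I region of chromosome 7 holds TRIM26 (chr7:22757794-22767662), SLA-1 (chr7:22824137-22920154), SLA-5 (chr7:22851888-22854782) and SLA-3 (chr7:22938211-22942735). Further along that chromosome lie PSMB8 (chr7:25058456-25061666), TAP1 (chr7:25062772-25071989) and PSMB9 (chr7:25072133-25077508), each next to the other. B2M has 2 entries on chromosome 1 (chr1:126837721-126844043 and chr1:126865767-126878501), and NLRC5 lies on chromosome 6 (chr6:18933179-19036288). HLA-B is named on the array after a human sequence and was given no position. Exons and introns were not looked up, since the position of each probe within its gene was not given in the sources used here.

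The array measured the members with oligonucleotides of 60 bases, and those of the heavy chains resembled each other: 13 pairs of member probes overlapped in sequence, of which 9 joined heavy chains. The following pair is shown because one name is SLA-3 and the other SLA-1, while the probes align over 59 bases with only 4 mismatches, here in capitals (G7C, G18T, G19A and C39G, as base of the SLA-1 probe, its position counted from 1 at the 5′ end, and base of the SLA-3 probe).
SLA-3 A_72_P440386: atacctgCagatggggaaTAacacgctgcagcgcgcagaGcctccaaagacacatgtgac
SLA-1 A_72_P440391: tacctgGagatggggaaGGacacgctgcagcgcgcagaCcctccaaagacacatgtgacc
The HLA-B probe also shared sequence with a heavy chain probe of the pig, an SLA-3 probe, with 24 of 29 aligned bases in common (in capitals), so that the human name of this probe does not set it apart from the SLA genes.
HLA-B O9607: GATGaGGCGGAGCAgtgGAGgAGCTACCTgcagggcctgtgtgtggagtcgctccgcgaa
SLA-3 A_72_P517623: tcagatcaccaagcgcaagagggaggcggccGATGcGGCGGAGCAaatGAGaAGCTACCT
A pair of SLA-1 probes is shown because their line differences had opposite signs. These probes align over 43 bases with 2 mismatches (A23G and T42A, counted in the first probe), and a stretch of 30 bases around both is printed with the differing bases in capitals.
SLA-1 A_72_P035616, bases 18 to 47: gggatAataaatgagagatttcctTagttt
SLA-1 A_72_P124686, bases 1 to 30: gggatGataaatgagagatttcctAagttt
Last, the probes of NLRC5, 2 of the 3 probes of TRIM26 and the SLA-5 probe with the largest line difference are shown, since results below depend on which probe of a gene was read. The remaining TRIM26 probe, O4836, is named only.
NLRC5 A_72_P527747: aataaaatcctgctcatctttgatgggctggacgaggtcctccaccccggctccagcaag
NLRC5 O8413: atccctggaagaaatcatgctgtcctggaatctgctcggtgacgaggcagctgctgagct
TRIM26 A_72_P444938: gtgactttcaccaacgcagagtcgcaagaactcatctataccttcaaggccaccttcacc
TRIM26 A_72_P440691: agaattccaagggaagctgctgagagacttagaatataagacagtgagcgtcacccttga
SLA-5 A_72_P414498: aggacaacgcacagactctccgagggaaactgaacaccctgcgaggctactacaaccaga

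Of the 41 probes, 40 were tested and were well above background on 48 of 48 arrays. The remaining one, the PSMB8 probe O5527, was above background on 4 arrays and has no value here. SLA-1 was read by 7 tested probes, SLA-3 by 8, SLA-5 by 2, HLA-B by 1, B2M by 9, TAP1 by 3, PSMB8 by 3, PSMB9 by 2, NLRC5 by 2 and TRIM26 by 3. Where 1 probe stands for a gene, it is the one with the highest mean intensity. For SLA-1 this was CUST_238, whose description on the array names another gene, and its line difference of -0.19 (-0.34 on the first and -0.05 on the second scan day) was smaller in size than the median of -0.44 over the SLA-1 probes.

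In the low RFI line, 37 of the 40 member probes had a lower mean than in the high RFI line, and the median line difference (low minus high RFI line, averaged over diets, log2) was -0.30, against 0.00529 over all 45236 tested probes. The cut-offs used for calls, P under 0.01 and a fold change over 1.1, were passed by 13 member probes in that direction and by 1 in the other. Over all tested probes, 3.49% passed in the first direction and 3.42% in the other. The genes were chosen for this contrast, so nothing follows from these shares. The size of the difference varied widely between genes and between probes of a gene.

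The line differences largest in size were at heavy chain probes. Of their 18 probes, 16 were lower in the low RFI line, with a median of -0.53 and a range from -1.13 to 0.31. The HLA-B probe ranged from 2.59 to 6.20 (median 4.85) in the 24 pigs of the low RFI line and from 4.02 to 7.04 (median 5.74) in the 24 pigs of the high RFI line, with a mean of 4.69 ± 0.91 (SD) against 5.74 ± 0.71. The ranges overlapped, but 22 of the 24 low RFI pigs lay below the high RFI median. The difference of -1.05, or 2.07-fold, was -0.94 under HF and -1.16 under LF, and -1.27 on the first and -0.82 on the second scan day.

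For SLA-5, a further class I heavy chain gene of the pig, the probe A_72_P414498 ranged from 0.35 to 4.30 (median 2.13) in the low RFI line and from 0.98 to 5.10 (median 3.19) in the high RFI line. Its line difference was -1.12, with 20 of 24 low RFI pigs below the high RFI median. The brighter SLA-5 probe, A_72_P441848, spanned 5.06 to 7.73 (median 6.88) and 6.21 to 8.15 (median 7.22) in the same order, a difference of -0.52 that was -0.74 on the first scan day and -0.30 on the second. Both SLA-5 probes were thus lower in the low RFI line, with overlapping ranges and differences in size by the probe.

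SLA-1, one of the classical heavy chains that present peptides to T cells, showed the widest spread between probes. The SLA-1 probe CUST_366 ranged from 4.03 to 9.20 (median 8.19) in the low RFI line and from 7.75 to 9.93 (median 9.11) in the high RFI line, a difference of -1.13. Of the 24 low RFI pigs, 23 were below the high RFI median, and 12 pigs of the high RFI line were above every pig of the low RFI line. A single pig of the low RFI line under LF made the lowest value, 4.03. The same pig was the lowest of all at probes of other members. Among these were HLA-B O9607 (2.59), SLA-3 A_72_P517623 (1.64), B2M CUST_232 (8.33), TAP1 O4777 (3.5) and PSMB9 A_72_P035551 (3.11). At PSMB8 A_72_P444948 and NLRC5 A_72_P527747 it was not the lowest. The line differences were not refitted without this pig. The probe A_72_P124686 went the other way: it ranged from 5.58 to 8.59 (median 6.90) in the low RFI line and from 5.45 to 7.90 (median 6.90) in the high RFI line, with a mean difference of 0.26 that was 0.01 on the first scan day and 0.52 on the second. Its neighbour in sequence, A_72_P035616, spanned 7.92 to 10.41 (median 9.56) and 9.28 to 10.46 (median 10.07), a difference of -0.54. These 2 probes, which differ at A23G and T42A in the stretch they share, correlated at r = 0.28 over the 48 pigs once the group means had been subtracted. Meanwhile, A_72_P035616 and CUST_366, which share 31 identical bases, correlated at r = 0.85.

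SLA-3, another classical heavy chain, had 7 of its 8 probes lower in the low RFI line. For A_72_P517623, values went from 1.64 to 5.29 (median 4.12) in the low RFI line and from 4.20 to 6.06 (median 5.07) in the high RFI line, a difference of -0.98, and 13 pigs of the low RFI line were below every pig of the high RFI line. The brightest SLA-3 probe, A_72_P682906, showed nearly complete overlap, from 7.67 to 9.81 (median 8.81) against 8.23 to 9.76 (median 9.05), a difference of -0.19 which was -0.40 on the first scan day and 0.03 on the second. A probe that shares 42 bases with the latter without mismatch, A_72_P625308, was higher in the low RFI line by 0.31, or by 0.14 and 0.47 on the first and second scan day (5.73 to 7.92, median 6.73, against 5.76 to 7.6, median 6.50). In all, 3 of the 9 overlapping pairs of heavy chain probes had line differences of opposite sign. By contrast, the SLA-1 and SLA-3 probes printed first had differences of -0.83 and -0.80 and correlated at r = 0.95, and the overlapping HLA-B and SLA-3 probes had -1.05 and -0.98, with r = 0.77. Transcripts of near-identical heavy chains cannot be separated on such probes. An allele that mismatches a probe and a lower amount of RNA cannot be told apart either, and the sequence of these pigs was not analysed here.

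**Figure D1:**
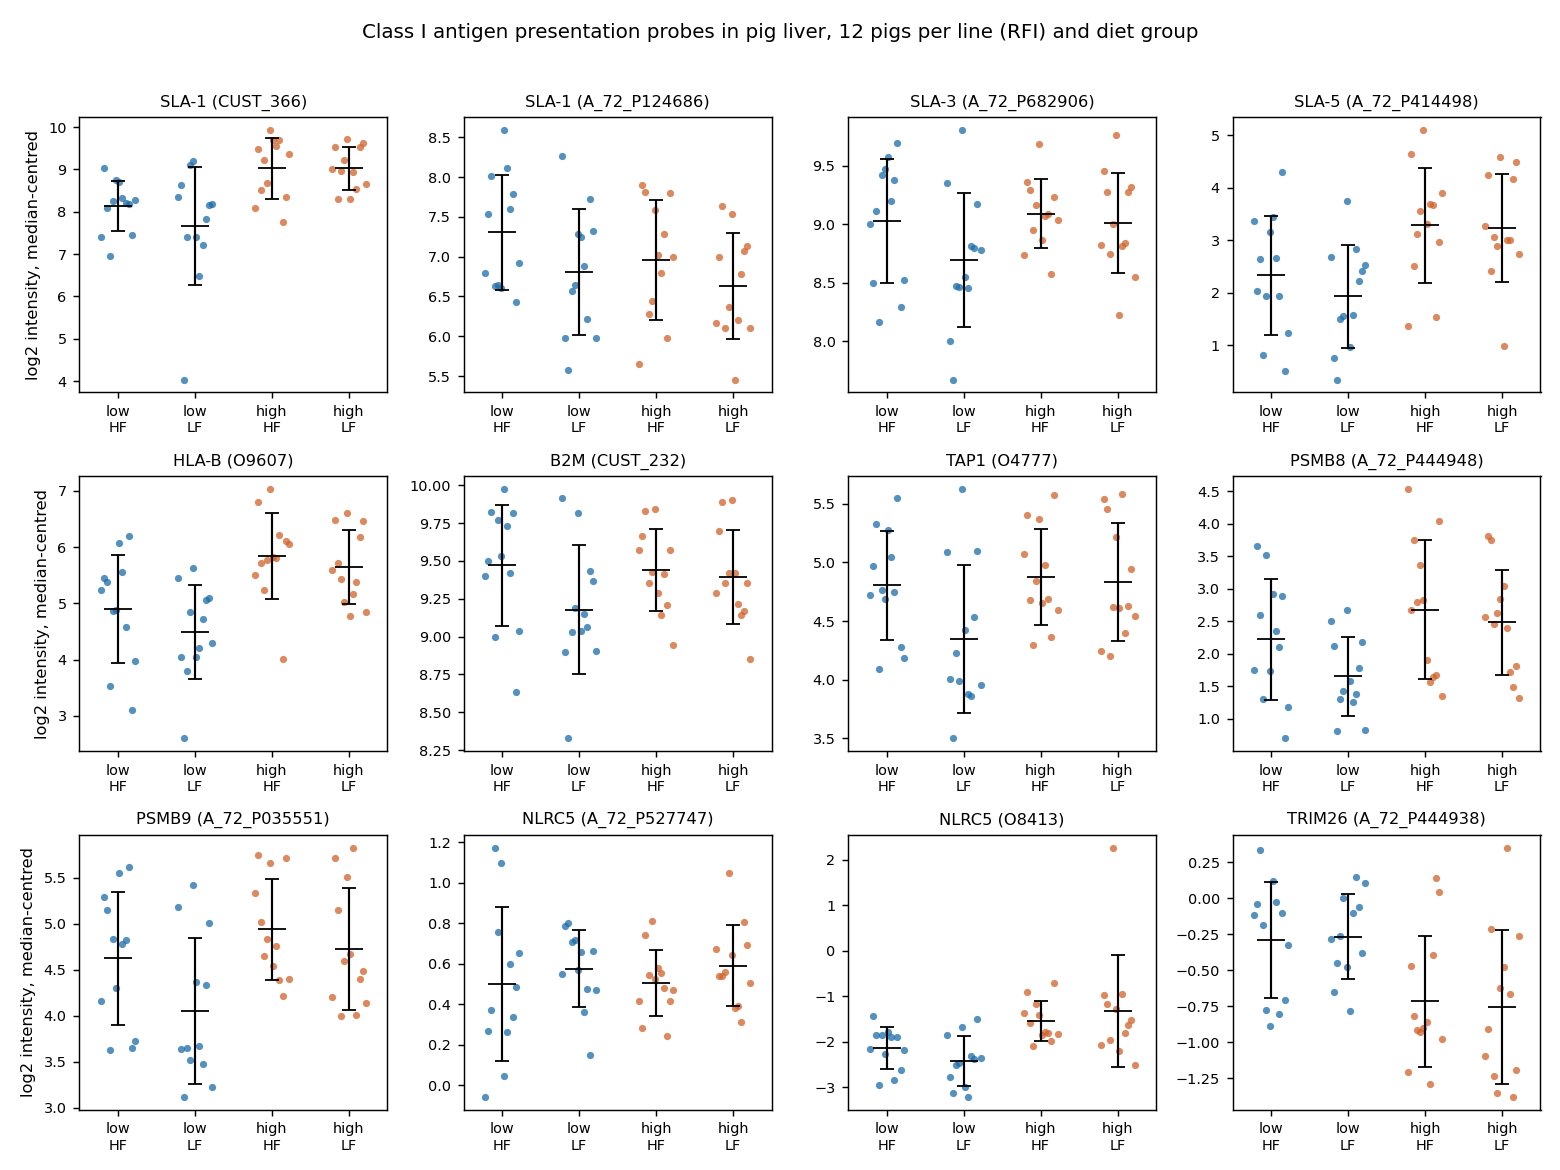
Median-centred log2 intensity (vertical axis) of 12 member probes in each pig (points), by RFI line and diet (horizontal axis, 12 pigs per group); the horizontal bar is the group mean and the whiskers are 1 SD. HLA-B O9607 spans 2.59 to 6.20 in the low RFI line and 4.02 to 7.04 in the high RFI line, while SLA-1 A_72_P124686 and B2M CUST_232 overlap almost fully between lines, and 1 pig of the high RFI line stands at 2.27 for NLRC5 O8413.

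Averaged over the scan days, the light chain differed little between lines. The B2M probe CUST_232 ranged from 8.33 to 9.98 (median 9.38) in the low RFI line and from 8.85 to 9.90 (median 9.39) in the high RFI line. The lines overlapped almost fully, with a mean of 9.32 ± 0.43 against 9.42 ± 0.29 and 12 of 24 low RFI pigs below the high RFI median. Over the 9 B2M probes, line differences went from -0.15 to -0.01. At each of the 9, however, the difference was below 0 on the first scan day and above 0 on the second. It was -0.25 and 0.07 at CUST_232, and -0.50 and 0.19 at A_72_P739834. The 9 probes moved together, with r of 0.87 to 1.0 in their 36 pairs.

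The transporter and the inducible proteasome subunits had lower means in the low RFI line at all of their tested probes. For TAP1 O4777, the low RFI line ranged from 3.5 to 5.63 (median 4.61) and the high RFI line from 4.20 to 5.59 (median 4.68). Of the low RFI pigs, 8 were below every pig of the high RFI line, but only 12 of 24 were below the high RFI median. The difference of -0.28 was -0.07 under HF and -0.48 under LF. The PSMB8 probe A_72_P444948 went from 0.70 to 3.65 (median 1.77) in the low RFI line and from 1.33 to 4.54 (median 2.59) in the high RFI line. Its difference of -0.64 was -1.05 on the first scan day and -0.24 on the second, so that the size differed between scan days. The PSMB9 probe A_72_P035551, with a difference of -0.50 (-0.71 and -0.28 by scan day), spanned 3.11 to 5.62 (median 4.32) in the low RFI line and 4.0 to 5.83 (median 4.66) in the high RFI line. The 3 PSMB8 probes (-0.64 to -0.60), the 2 PSMB9 probes (-0.50 and -0.49) and the 3 TAP1 probes (-0.37 to -0.28) gave alike values within each gene.

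The probes of NLRC5 gave different pictures. At A_72_P527747, the lines had the same level, from -0.06 to 1.17 (median 0.56) in the low RFI line and from 0.24 to 1.05 (median 0.54) in the high RFI line, a difference of -0.01. At O8413 the low RFI line ranged from -3.22 to -1.43 (median -2.29) and the high RFI line from -2.50 to 2.27 (median -1.62), a difference of -0.86 (-1.10 and -0.61 by scan day), with 22 of 24 low RFI pigs below the high RFI median. The highest value belonged to 1 pig of the high RFI line under LF, on the first scan day, and the next highest of that line was -0.71. Over 48 pigs with group means subtracted, the 2 probes correlated at r = 0.07.

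TRIM26 also differed by probe. At A_72_P444938 the low RFI line was higher, with -0.88 to 0.34 (median -0.23) against -1.38 to 0.35 (median -0.88), a difference of 0.45 (0.57 and 0.34 by scan day), and 23 of its 24 pigs exceeded the high RFI median. At the brightest probe, O4836, it was lower, with 4.90 to 6.02 (median 5.48) against 5.09 to 6.12 (median 5.68), a difference of -0.20, and 22 of 24 pigs were below that median. The third probe, A_72_P440691, had a difference of -0.07. The direction of the TRIM26 difference therefore depended on the probe.

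Across the 4 groups, 36 of the 40 probes had their lowest mean in the low RFI line under LF and 27 had their highest in the high RFI line under HF. The low RFI group under LF holds the pig that was lowest at several members, as given for SLA-1. The order was thus much the same at most probes, but the steps were small: a group differed from its neighbour in that order by more than the larger of their SDs at only 2 of the 40 probes. HLA-B O9607, for example, had means of 4.48 ± 0.84 in the low RFI line under LF and 4.90 ± 0.96 under HF, and of 5.64 ± 0.66 in the high RFI line under LF and 5.84 ± 0.77 under HF (SD, n = 12 each).

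**Figure D2:**
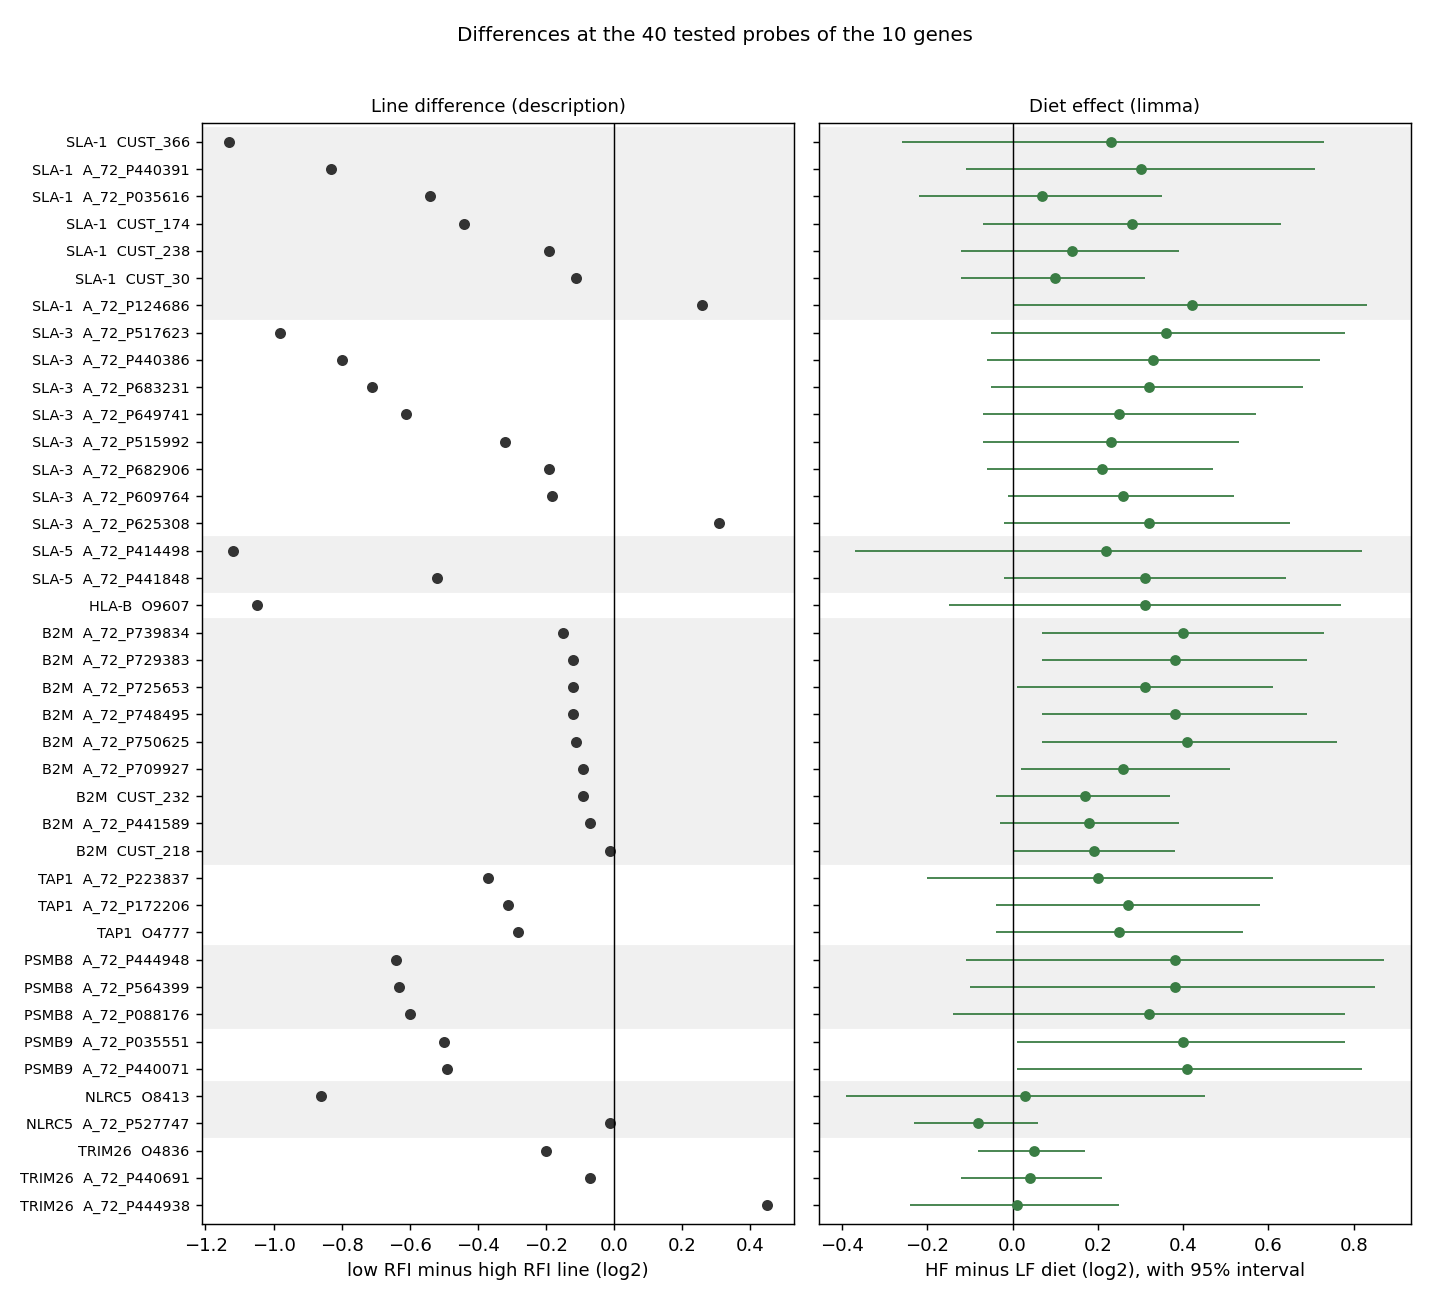
Line difference (left, low minus high RFI line, a description with no test) and diet effect (right, HF minus LF, with 95% interval from limma) on the log2 scale at the 40 tested probes, grouped by gene in shaded bands. Line differences range from -1.13 to 0.45 and vary within SLA-1, SLA-3, NLRC5 and TRIM26, while 39 of the 40 diet effects lie above 0, between 0.01 and 0.42, and most intervals include 0.

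The diet effect was measured to see whether the same genes responded to the feed. With the high-fat high-fiber diet, 39 of the 40 member probes had a higher mean than with the low-fat low-fiber diet, with a median of 0.27 (log2) against -0.0141 over all tested probes. However, 0 of 40 passed P under 0.01 and a fold change over 1.1 (limma), whereas 4.61% of all probes did. At an unadjusted P under 0.05 there were 10 probes (7 of B2M, 2 of PSMB9 and 1 of SLA-1), against 14.4% of all tested probes, and the lowest Benjamini-Hochberg adjusted P was 0.239. The probes are not independent, and those of 1 gene largely repeat each other.

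For B2M CUST_232, the pigs under HF ranged from 8.63 to 9.98 (median 9.46) and those under LF from 8.33 to 9.92 (median 9.25), a diet effect of 0.17 with a 95% interval of -0.04 to 0.37 (limma, adjusted P = 0.448). Of the 24 pigs under HF, 18 were above the median under LF. At the other B2M probes the effect reached 0.41 (A_72_P750625, 95% interval 0.07 to 0.76), with adjusted P of 0.239 and above (limma). With quantile normalization the B2M probe CUST_218 passed the cut-offs (0.27, adjusted P = 0.196, limma), and with the normexp background correction the B2M probe A_72_P739834 did (0.45, adjusted P = 0.16, limma).

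PSMB9 A_72_P035551 ranged from 3.62 to 5.75 (median 4.80) under HF and from 3.11 to 5.83 (median 4.35) under LF. Its diet effect was 0.40 (95% interval 0.01 to 0.78, limma, adjusted P = 0.34), with 18 of 24 pigs under HF above the median under LF. For HLA-B O9607 the corresponding ranges were 3.1 to 7.04 (median 5.53) and 2.59 to 6.61 (median 5.08), an effect of 0.31 (-0.15 to 0.77, adjusted P = 0.543). The SLA-3 probe A_72_P609764 had 21 of 24 pigs under HF above the median under LF, an effect of 0.26 (-0.01 to 0.52, adjusted P = 0.361). The intervals of these probes include effects near 0 and effects above 0.5, although that of PSMB9 excludes 0. With no member probe called in the main fit, a diet effect was not established with these arrays. NLRC5 (-0.08 and 0.03), TRIM26 (0.01 to 0.05) and SLA-1 A_72_P035616 (0.07) had small effects, although the interval of NLRC5 O8413 was wide (-0.39 to 0.45).

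Within the low RFI line the median diet effect over the member probes was 0.41, and within the high RFI line 0.15. The difference between these effects was tested as the interaction of line and diet. It was called (P under 0.01) at 0 of 40 member probes against 0.376% of all probes, and 0 had an unadjusted P under 0.05 (limma, lowest unadjusted P = 0.158, adjusted P = 1). The largest interaction was that of TAP1 A_72_P223837, 0.53 with a 95% interval of -0.28 to 1.35. The responses of the lines to the diet were thus not shown to differ.

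Most members varied together from pig to pig. The low RFI pig under LF that was lowest at several members was included, and no r without it is given here. After subtraction of the group means, the 153 pairs of heavy chain probes correlated at a median r of 0.77 (0.18 to 0.98) over the 48 pigs, as a description, since these probes share sequence, array and RNA. Among the 8 genes other than NLRC5 and TRIM26, each read by 1 probe, r went from 0.39 (PSMB8 with SLA-3) to 0.94 (TAP1 with PSMB9), with a median of 0.75. B2M, on another chromosome, correlated with SLA-1 at 0.93 and with SLA-5 at 0.89. TRIM26, a neighbour of the SLA genes, stayed between 0.09 and 0.41 with these genes. NLRC5 at its brighter probe lay between -0.29 and 0.10 with the other 9.

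**Figure D3:**
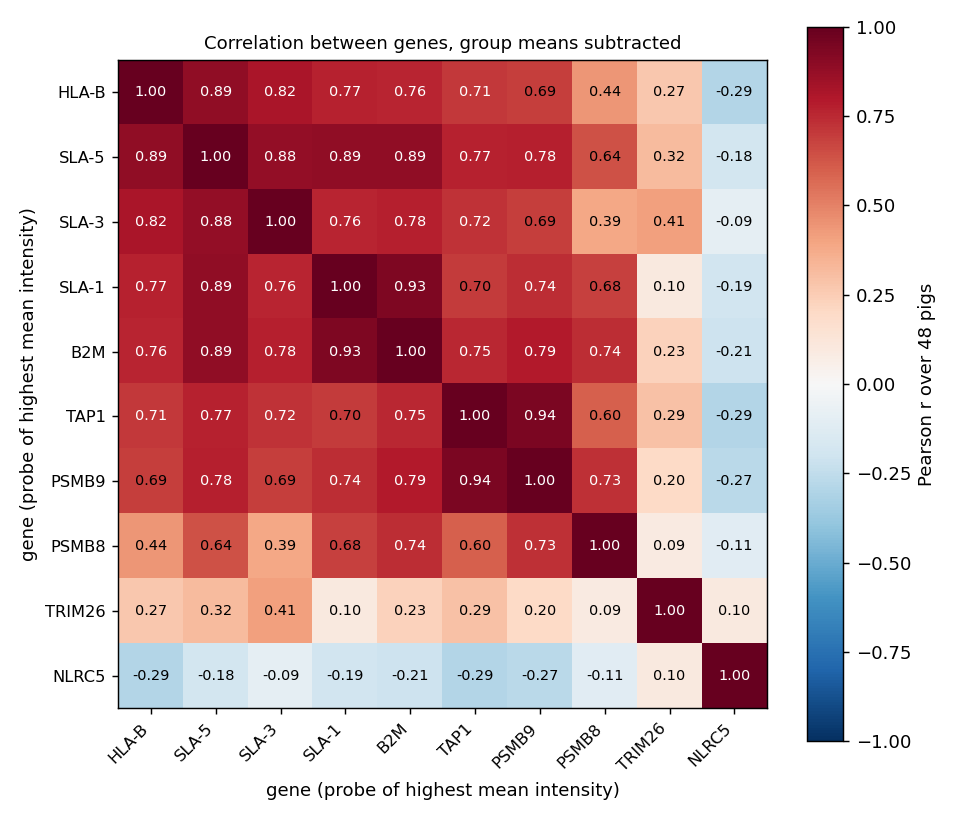
Pearson r between the 10 genes over 48 pigs (colour scale and printed values), each read by its probe of highest mean intensity and with the line and diet group means subtracted. The pig that was lowest at several members is included. The heavy chains, B2M, TAP1, PSMB9 and PSMB8 form a block with r of 0.39 to 0.94, from which TRIM26 (0.09 to 0.41) and NLRC5 (-0.29 to 0.10) stand apart.

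Genes with a pattern like that of a member were sought among 10529 genes by the same r. Closest to B2M were B2MB (0.99), HLA-H (0.84), LYPLA2 (0.83), LOC733637 (0.83) and NUS1 (0.82). Closest to HLA-B were the heavy chains HLA-H (0.89) and HLA-F (0.88), then FSCN1 (0.77) and B2MB (0.73). Closest to NLRC5 A_72_P527747 were PRSS36 (0.82), RASA3 (0.79), SRCAP (0.78), PCDH8 (0.78) and ELANE (0.77), none of them on the list of class I pathway genes or that of interferon-stimulated genes.

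Because NLRC5 activates class I genes, its relation to the other 9 members was tested within each line, where the line difference has no part. Over the 24 pigs of a line, with diet means subtracted, 0 of 18 pairs passed an adjusted P of 5% for A_72_P527747 (2-sided permutation test with 100000 resamples, adjusted over the 18 pairs). The strongest was with HLA-B in the low RFI line, at r = -0.53 (permutation P = 0.0121, adjusted P = 0.218) and rho = -0.60 (permutation P = 0.0033, adjusted P = 0.0594). Without the 2 pigs farthest from the NLRC5 median, r was -0.51. On the first and second scan days it was -0.55 and -0.59.

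The other NLRC5 probe, O8413, was set against the same genes after the data had been seen. In the low RFI line, 8 of 9 pairs passed, with r of 0.63 to 0.76 for every member but TRIM26 (0.21). These 8 members correlated with each other (median r 0.75 over the 48 pigs), so that the 8 pairs largely repeat each other. How many other genes reach such an r with O8413 was not counted. With HLA-B, r was 0.76 (2-sided permutation P = 2e-05, adjusted P = 0.00036) and rho 0.81 (adjusted P = 0.00024). Without the 2 farthest pigs it was 0.74, and it was 0.90 on the first and 0.64 on the second scan day. In the high RFI line, 0 of 9 pairs passed by r (0.08 to 0.38) and 6 of 9 by rho, up to 0.80 with TAP1 (permutation P = 3e-05, adjusted P = 0.00024). That line holds the pig at 2.27, which was on the first scan day. Without the 2 farthest pigs, r went from 0.34 to 0.79. With no pig left out, r went from -0.19 to 0.16 on the first scan day, which includes that pig. On the second it went from 0.17 to 0.80. The difference between the lines in these relations was not tested. Which of the probes reads the NLRC5 transcript was not tested here either. The paper's qPCR in liver gave a lower NLRC5 level in the low RFI line. O8413 had that direction (-0.86), while A_72_P527747 hardly differed between lines (-0.01).

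**Figure D4:**
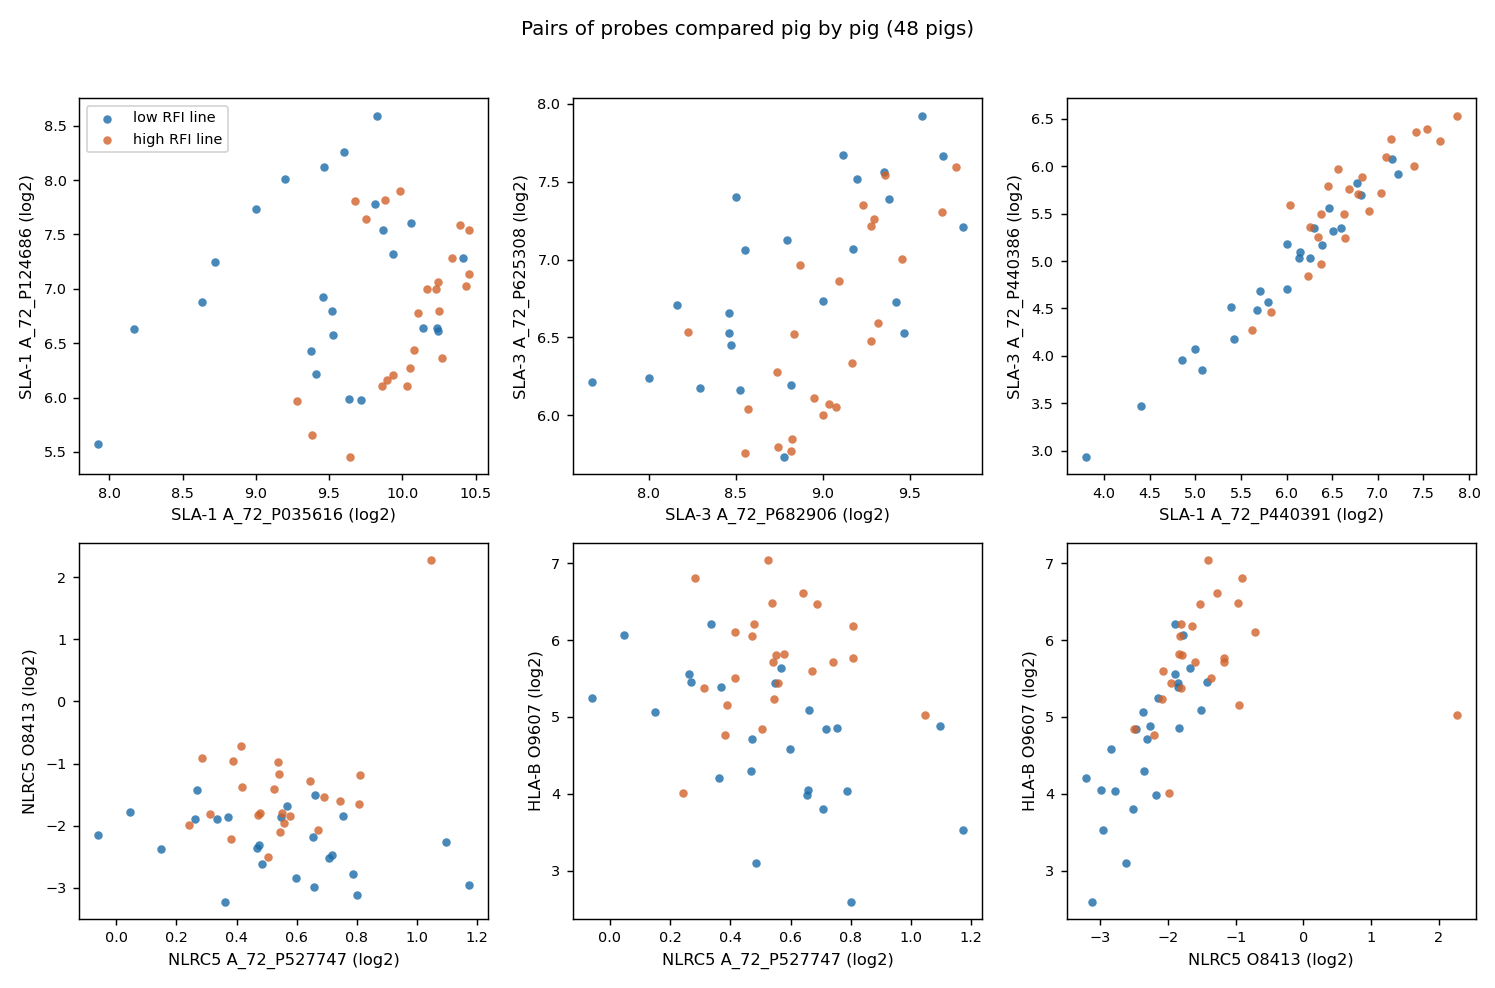
Median-centred log2 values of 2 probes in each of 48 pigs (points, blue for the low and orange for the high RFI line). The SLA-1 pair that differs at 2 bases scatters (r = 0.28 with group means subtracted) while the SLA-1 and SLA-3 pair with 4 mismatches lies on a line (0.95); HLA-B increases with NLRC5 O8413 in the low RFI line (0.76 with diet means subtracted) and not with NLRC5 A_72_P527747 (-0.53), and 1 pig of the high RFI line stands apart at 2.27 for O8413.

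Beyond the members, 28 further genes of the class I pathway were listed, of which 25 had a tested probe. With line, 3 of these 25 were called (limma, P under 0.01 and fold change over 1.1), against 6.78% of all named genes, with a median difference of -0.01. Directions differed: PSMB10, the remaining inducible proteasome subunit, and IRF1, a transcription factor induced by interferon, were lower in the low RFI line, and CANX (calnexin), a chaperone that holds new heavy chains, was higher.

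PSMB10 ranged from 4.09 to 5.24 (median 4.71) in the low RFI line and from 4.26 to 5.47 (median 5.03) in the high RFI line, a line effect of -0.32 ± 0.10 (SE, adjusted P = 0.0428). CANX ranged from 6.16 to 6.77 (median 6.4) and from 5.78 to 6.60 (median 6.24) in the same order, an effect of 0.19 ± 0.06 (adjusted P = 0.0397). IRF1 spanned 1.45 to 2.80 (median 2.0) and 1.68 to 3.5 (median 2.40), an effect of -0.34 ± 0.11 that passed the cut-offs (unadjusted P = 0.00388) but not an adjusted P of 5% (0.0779). At PSMB10, 4 of 4 probes were called, with effects of -0.36 to -0.32, while CANX and IRF1 were called at 1 of 3 probes each. All 3 were the same in direction on both scan days, while PSMB10 and CANX passed the cut-offs on the first day alone and not on the second, and IRF1 passed on neither.

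By part of the pathway, 1 of 3 genes of the inducible proteasome and its activator was called lower (PSMB10, with PSME1 at 0.00 and PSME2 at -0.08). Of the 3 constitutive subunits that PSMB8, PSMB9 and PSMB10 replace, 0 were called (median 0.02, lowest adjusted P = 0.681). In peptide transport and loading, 1 of 7 was called higher (CANX), and TAP2, the partner of TAP1, had a line effect of -0.03 (adjusted P = 0.905). Among 12 transcription factors 1 was called lower (IRF1).

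With diet, 1 of the 25 genes was called, against 4.19% of all named genes. It was NFYB, a subunit of the NF-Y factor that binds class I promoters, which ranged from 0.25 to 1.52 (median 1.09) under HF and from 0.48 to 2.68 (median 1.32) under LF, an effect of -0.34 ± 0.12 (limma, unadjusted P = 0.00722, adjusted P = 0.176), with 3 of its 4 probes called. The median over the 25 genes was 0.00, and 13 of them were above 0.

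Other class I and class I-like heavy chains were measured at 10 of 20 listed genes. HLA-H (-0.69), SLA-8 (-0.52) and HLA-F (-0.48) were lower in the low RFI line and HLA-E was higher (0.31), as a description, since they share sequence with the members. For HLA-H the low RFI line ranged from 4.40 to 7.34 (median 6.44) and the high RFI line from 6.09 to 7.85 (median 6.90). At SLA-8 the other probes reached 0.77, so that its direction depended on the probe. The class I-like genes FCGRT (-0.03) and MIC-2 (-0.11) had smaller differences. With diet, 0 of the 10 were called, with a median of 0.16.

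The neighbours of the class I genes on chromosome 7 were examined as far as 10 genes to each side. Of the 27 entries of this window, 18 had a tested probe, and 14 of these were not members. At the brightest probe of each gene, line differences of 12 of the 14 lay between -0.11 and 0.13. By the same measure the members had -0.20 (TRIM26), -0.19 (SLA-1), -0.52 (SLA-5) and -0.19 (SLA-3). Of the 14, 7 were lower and 7 higher in the low RFI line. These values are a description, as this region was chosen for its line differences. The exceptions among the 14 were TRIM10 and ABCF1. TRIM10 (-1.11; -6.4 to -3.19, median -4.95, against -5.98 to -2.32, median -3.86) was above background on only 13 arrays. ABCF1 (0.47; 3.05 to 4.58, median 4.08, against 3.18 to 4.03, median 3.54) had 1 of its 5 probes past the cut-offs, and PPP1R11 had 1 of 3, at -0.20. TRIM15, between TRIM10 and TRIM26, had -0.11, and TRIM39, next on the other side, had 0.05. With diet, 0 of the 14 were called, with effects from -0.17 to 0.29.

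**Figure D5:**
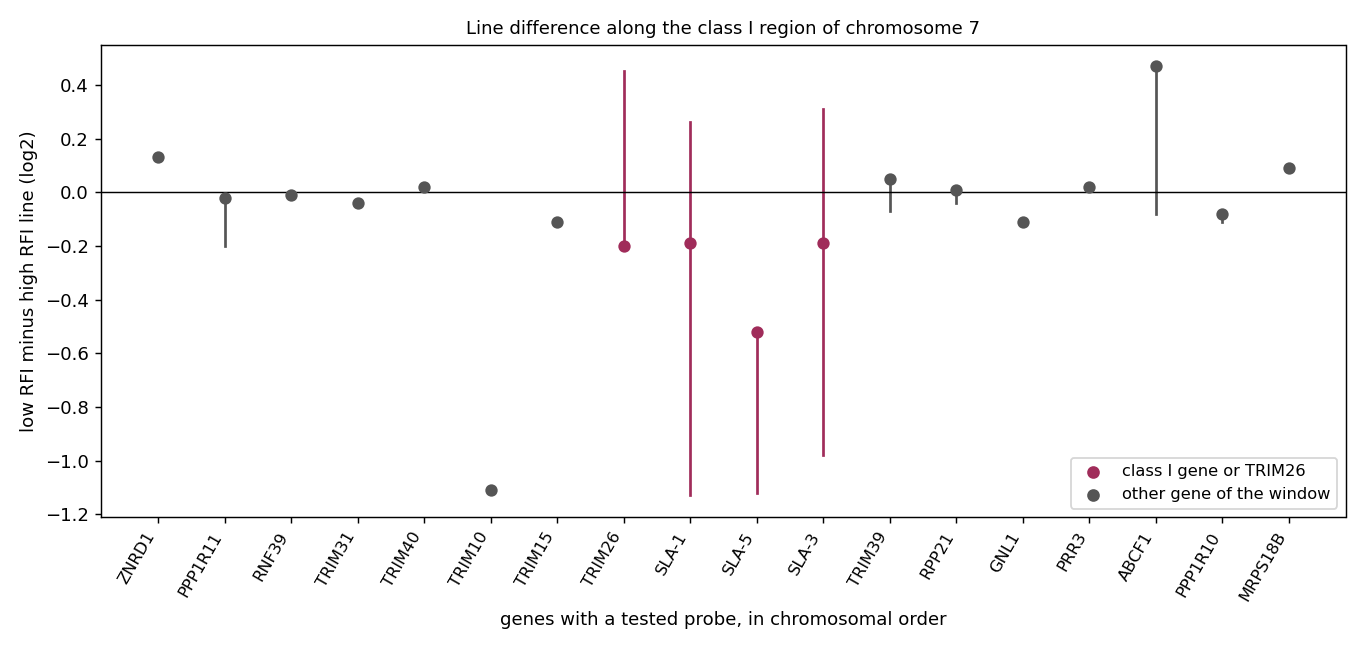
Line difference (low minus high RFI line, log2) of the genes of the class I region of chromosome 7 with a tested probe, in chromosomal order; points give the probe of highest mean intensity and vertical lines the range over all tested probes of a gene. Over all their probes, the SLA genes and TRIM26 span -1.13 to 0.45. Their points lie at -0.20 (TRIM26), -0.19 (SLA-1), -0.52 (SLA-5) and -0.19 (SLA-3). The points of all others lie between -0.11 and 0.13 apart from TRIM10 (-1.11) and ABCF1 (0.47).

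Markers of liver cells and of the response to interferon were measured beside these results, and their part in them was not tested. In bulk tissue, fewer cells of a type and less RNA per cell cannot be told apart. Hepatocyte markers, of which 7 of 8 had a tested probe, were well above background on all 48 arrays, with a mean level of 9.82 to 10.56 in the pigs. Between lines, markers of Kupffer cells and macrophages were lower in the low RFI line at 8 of 10 genes with 0 called (median -0.18; mean level 2.64 to 3.82 against 2.96 to 3.93). Those of B and plasma cells were lower at 4 of 5 with 0 called (median -0.18), and those of T and NK cells at 8 of 12 with CD247 called (-0.28, limma, adjusted P = 0.123). Interferon-stimulated genes were lower at 17 of 24, with a median of -0.10 and GBP4 called (-0.42, limma, adjusted P = 0.0934). All 7 hepatocyte markers were above 0 (median 0.04; APOA1 called, 0.15, limma, adjusted P = 0.121). Endothelial markers were higher in the low RFI line at 6 of 6 (median 0.09, 0 called) and red blood cell markers at 2 of 2 (0 called). Stellate cell and fibroblast markers were higher at 5 of 7, with 1 called (median 0.09, limma, lowest adjusted P = 0.0384). Bile duct markers were lower at 3 of 4, with 1 called (median -0.16). Of all 10604 named genes, 4985 were lower in the low RFI line, and 6.78% were called for line in either direction. With lists this short, a single call is not a result about a cell type or about interferon.

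With diet, interferon-stimulated genes were higher under HF at 24 of 24 genes with a median of 0.35, but 0 were called and 0 had an unadjusted P under 0.05 (mean level 1.95 to 4.88, median 3.37, under HF, and 1.95 to 4.83, median 2.64, under LF). Kupffer cell markers were higher at 9 of 10 (median 0.12, 0 called) and hepatocyte markers lower at 7 of 7 (median -0.11, 0 called). Of the T and NK cell markers, 7 of 12 were higher, and CD247, the zeta chain of the T cell receptor, was called (0.40, limma, adjusted P = 0.0493). Markers were higher under HF at 4 of 4 genes for bile duct cells, 5 of 7 for stellate cells and fibroblasts and 4 of 6 for endothelial cells. They were higher at 2 of 5 for B and plasma cells and lower at 2 of 2 for red blood cells. In these lists 0 were called. Over all named genes the median diet effect was -0.02, with 4671 of 10604 above 0 and 4.19% called for diet. Line differences of probes described above also differed between the scan days, each of which held 6 arrays of each group, and this was not tested.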

How the data were processed

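The authors deposited scanner output of Agilent Feature Extraction 10.7.3.1, in which every spot has an intensity with the background subtracted and no normalization between arrays. They also deposited a table of log2 values (R 2.10.0 per the labels), which equals the log2 median intensity minus a constant per array over 37379 probes. Here, log2 of the background-subtracted intensity was used. Control spots were left out, 483 outlier spots were set to missing, spots of a probe were averaged and each array was centred on its median over the 45236 tested probes, those that 12 or more arrays showed well above background. A model with line, diet and their interaction was fitted to all of them with limma 3.58.1 in R 4.3.3 (prior degrees of freedom 2.8), and adjusted P are over all tested probes. The intervals are 95% intervals of that fit. The files held no sequencing reads, and the number of arrays limits the precision. Gene names came from the reference table of Sscrofa11.1 by accession, otherwise from the scanner output. Permutation tests used scipy 1.17.1. The steps were tested on simulated data. The members, the gene lists and the tests were chosen with earlier results of these data known. All members were named, together with pathway genes called for line or diet, the 5 genes most like NLRC5, B2M and HLA-B, and the neighbours on chromosome 7, apart from a gene within this rule that is not reported here; other probes, genes of the marker lists and pathway genes given for comparison were singled out after their values were seen. Nothing shows that pigs of a group were unrelated, so that P measure the spread between these pigs.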

Additional observations from a re-analysis of the deposited data

How the results depend on the processing

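Alternatives to the fit were no moderation of the variances, no interaction term, slide or scan day as a block and each scan day alone. Alternatives to the values were the deposited log2 table, the 75th percentile in place of the median, quantile normalization, normexp (offset 50), the median signal as read, outlier spots kept, and all probes or those detected on 48 arrays. Other probes were also taken to stand for a gene. The median line difference of the member probes stayed between -0.45 and -0.18, and the interaction was called at 0 member probes under each of its alternatives. The number of member probes called for diet went from 0 to 1 with quantile normalization and to 1 with normexp. Of the 25 pathway genes, those called for line went from 3 to 0 on the second scan day alone and to 1 with the mean over the probes of a gene. Those called for diet went from 1 to 2 with normexp, with slide as a block, with the mean over probes and when a gene was called by at least 1 probe, and to 0 on each scan day alone. Relations of NLRC5 went from 0 to 5 pairs with the mean over probes and to 8 with its other probe, an alternative chosen after seeing the data. On the second scan day alone, the line differences of the brightest probes of SLA-3 (0.03) and B2M (0.07) changed sign. Other SLA-3 probes ran from -0.87 (A_72_P517623) to 0.47 (A_72_P625308) on that day. A scan day alone holds 24 arrays, and further causes were not tested. Of the single values followed, each at the brightest probe of its gene and without the line difference of NLRC5, the others kept their sign. Among them 6 lost their call, those of PSMB10, CANX, IRF1 and NFYB on 1 or both scan days alone. Further probes changed sign between the first and second scan day. Examples are SLA-1 CUST_30 (line, -0.26 and 0.03), NLRC5 A_72_P527747 (line, 0.03 and -0.06) and SLA-1 A_72_P035616 (diet, -0.07 and 0.21). Probes near background, such as TRIM10 and O5527, are limited by their signal, and probes that share sequence cannot be assigned to 1 gene.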
